A study of Mus musculus with 16 samples.

Results

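The genes described here are 10 members of the response that the transcription factor ATF4 directs to amino acid and protein stress, together with the serine and folate enzymes that response is known to induce: Atf4, Atf3, Ddit3, Trib3, Asns, Psat1, Phgdh, Shmt2, Mthfd2 and Slc7a5. They were taken by symbol from the raw count table, which holds all 10 among its 13320 genes. RNA was taken from the quadriceps of CD2F1 males, aged 8 weeks when the experiment began, with 4 libraries in each of 4 groups. Splenic C26 mice received cells of C26, a mouse colon carcinoma line, in the spleen, a route by which the tumour seeds the liver; sham mice were operated on and given saline. Subcutaneous C26 mice carried the same cells under the skin, and what their control group received is not stated. C26 is 1 transplanted line, and no genotype, transgene or drug is given for any group. Nothing in the labels ties each library to an animal of its own. If libraries of a group share one, the p-values here reflect technical spread in part, or alone if all of them do. Sham and splenic C26 carry 1 title prefix and control and subcutaneous C26 another, and each tumour group was compared with the tumour-free group of its prefix.

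Libraries held 25882067 to 34910657 counts. The 5 muscle fibre markers (Ckm, Acta1, Myh4, Mylpf and Tnnt3) were measured in every library at a summed level of 78813 to 221709 CPM (counts as a share of the library, scaled with TMM factors). Markers of other cells moved with single libraries and with whole groups. Hepatocyte markers summed to 130 CPM in splenic C26 replicate 1, against 1.09 to 2.46 CPM in the other 3 splenic C26 libraries, and to 29.5 to 225 CPM in all 4 control libraries. Neutrophil markers summed to 164 CPM in splenic C26 replicate 3, and the 2 measured of 5 proliferation markers, Mki67 and Top2a, to 61.4 CPM in subcutaneous C26 replicate 4. Adipocyte markers (Adipoq, Plin1, Fabp4 and Cfd) reached 1815 CPM in sham replicate 2 and 1433 CPM in control replicate 1. The 4 fibro-adipogenic markers summed to 941 to 1058 CPM in sham and to 316 to 345 CPM in splenic C26 replicates 2 to 4, with 900 CPM in replicate 1. In subcutaneous C26 against control, the 5 endothelial markers (138 to 185 against 255 to 290 CPM) and the 4 Schwann cell markers (15.4 to 21.3 against 30.5 to 50.9 CPM) were lower without overlap, and none of these markers was at 0 in any library. The part of these cells in the members' falls was not tested. In whole muscle, fewer cells of a type and less RNA per cell cannot be told apart.

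As background, kinases that sense amino acid shortage, unfolded protein, double-stranded RNA or haem shortage phosphorylate the initiation factor eIF2 alpha. General translation then slows while ATF4 protein is made from its existing mRNA, so that the level of Atf4 mRNA is only a part of ATF4 activity. ATF4 pairs with C/EBP-family proteins on composite sites near genes of amino acid uptake, amino acid synthesis and stress signalling. The serine route runs from a glycolytic intermediate through PHGDH, PSAT1 and PSPH to serine, from which SHMT2 and MTHFD2 pass one-carbon units to folate inside mitochondria.

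Promoter windows of the members are shown first because they are the stretches in which a composite ATF4 and C/EBP spelling near the start of a gene can be read. RefSeq sequences (GRCm38.p6, the mm10 build) matched 9 of the 10 members by symbol, and the 250 bases before each gene start were searched on either strand for TGATGNAA, a core of the composite site, for TGGTGNAA, which differs from it at 1 letter, and for TGACGT, the ATF/CREB core. The second spelling was added after the windows had been read. The first was found in 3.45% of all 32851 windows of this length, the second in 2.79% and the third in 6.47%. The windows below are those of the 4 members with a match and of 2 members without one whose transcripts fell; capitals mark matches, read 5′ to 3′ on the gene's strand, and no matches overlapped.
Atf3, chr1:191183334-191183583, minus strand: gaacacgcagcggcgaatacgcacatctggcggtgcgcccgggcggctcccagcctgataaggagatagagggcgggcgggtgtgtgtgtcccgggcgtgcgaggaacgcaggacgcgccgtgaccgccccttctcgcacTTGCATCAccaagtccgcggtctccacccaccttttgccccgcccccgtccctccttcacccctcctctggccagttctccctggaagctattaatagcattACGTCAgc
Trib3, chr2:152344061-152344310, minus strand: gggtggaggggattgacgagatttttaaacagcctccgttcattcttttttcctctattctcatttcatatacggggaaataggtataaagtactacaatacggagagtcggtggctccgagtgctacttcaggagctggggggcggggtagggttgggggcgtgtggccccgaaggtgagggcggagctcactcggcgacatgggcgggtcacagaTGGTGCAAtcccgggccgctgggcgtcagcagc
Asns, chr6:7693210-7693459, minus strand: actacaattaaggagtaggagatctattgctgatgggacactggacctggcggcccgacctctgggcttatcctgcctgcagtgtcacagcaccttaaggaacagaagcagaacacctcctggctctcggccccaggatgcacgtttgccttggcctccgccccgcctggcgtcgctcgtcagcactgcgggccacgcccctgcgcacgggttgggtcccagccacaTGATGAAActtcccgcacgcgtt
Psat1, chr19:15925060-15925309, minus strand: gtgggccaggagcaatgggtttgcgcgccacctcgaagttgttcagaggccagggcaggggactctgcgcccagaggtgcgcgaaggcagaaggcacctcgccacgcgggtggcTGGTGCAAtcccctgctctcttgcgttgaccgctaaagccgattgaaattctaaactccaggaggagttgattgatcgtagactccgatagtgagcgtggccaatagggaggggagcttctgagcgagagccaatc
Ddit3, chr10:127290543-127290792, plus strand: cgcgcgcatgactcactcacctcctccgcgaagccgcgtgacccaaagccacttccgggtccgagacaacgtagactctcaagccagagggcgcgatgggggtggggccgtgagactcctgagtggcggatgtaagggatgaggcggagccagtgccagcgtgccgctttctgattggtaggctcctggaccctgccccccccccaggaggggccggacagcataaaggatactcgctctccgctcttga
Mthfd2, chr6:83317605-83317854, minus strand: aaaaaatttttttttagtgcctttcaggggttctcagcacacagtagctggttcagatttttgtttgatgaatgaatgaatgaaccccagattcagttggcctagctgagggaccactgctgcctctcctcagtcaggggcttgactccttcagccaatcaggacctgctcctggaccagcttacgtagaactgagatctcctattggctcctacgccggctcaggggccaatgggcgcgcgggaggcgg
Atf3 held TGATGCAA on the opposite strand, beginning 110 bases before its start, and TGACGT on the opposite strand 8 bases before it. Asns held TGATGAAA 23 bases before its start. Trib3 held TGGTGCAA 33 bases before its start, and Psat1 held TGGTGCAA 136 bases before 1 of its 2 listed starts. No spelling was found in the windows of Atf4, Ddit3, Phgdh, Shmt2 and Mthfd2, which says only that these letters are not in these windows. Atf4 is among these members and rose in both comparisons, while Asns and Psat1, with a match, passed in neither. A link between a match and the direction of change was not tested. Starts here are those listed in RefSeq. For Atf3, Psat1 and Mthfd2 they lie inside the longer GENCODE spans given below, and the bases before the outer starts of those spans were not searched. For Asns, Phgdh and Ddit3 the listed starts lie a little inside the GENCODE spans, and their windows reach across the outer starts. The Asns match lies between its listed start and its outer GENCODE start.

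Levels of different genes were compared per kilobase of exon, over the 8 tumour-free libraries. Atf4 stood at 75.7 CPM per kb, above 96.9% of the 12868 genes with a length, and its range of 68.0 to 84.0 lay clear of all other members. Shmt2 followed at 10.4 CPM per kb and Atf3 at 5.31, but Atf3 spanned 1.82 to 14.7 and overlapped with Shmt2 above it and with Ddit3 (4.71) below it. Ddit3 was clear of Asns, the next in order. The 6 lowest members, Asns (1.44), Mthfd2 (1.18), Phgdh (1.05), Psat1 (0.778), Slc7a5 (0.594) and Trib3 (0.503 CPM per kb), each overlapped with the next in that order. The serine enzymes of the cytosol, PHGDH and PSAT1, were thus encoded by sparse transcripts in this muscle, while Shmt2 lay above 78.5% of genes. Counts behind the sparsest members were few: 17 to 81 per library for Trib3 and 10 to 157 for Phgdh.

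In splenic C26 against sham, 4 of the 10 members rose (Atf4, Atf3, Trib3 and Slc7a5), 3 fell (Ddit3, Phgdh and Mthfd2) and 3 did not pass (Asns, Psat1 and Shmt2) at an adjusted p under 0.05. Of all genes, 28.1% rose and 23.9% fell in that comparison (52.0% in all), and shares of 4 and 3 of 10 members stand near that background. In subcutaneous C26 against control 2 members rose (Atf4 and Atf3), 1 fell (Ddit3) and 7 did not pass, against 27.0% and 23.1% of all genes (50.0% in all). Splenic C26 and sham libraries did not overlap for 4 members, 1 higher (Atf4) and 3 lower (Ddit3, Phgdh and Mthfd2), where 21.1% of all genes lay apart in the higher and 21.1% in the lower direction (42.2% in all). Subcutaneous C26 and control libraries did not overlap for 4 members, 2 higher (Atf4 and Atf3) and 2 lower (Ddit3 and Psat1), against 25.2% and 20.7% of all genes (45.9% in all). The median log2 fold change of the members was 0.29 and 0.07, beside -0.03 and -0.02 for all genes.

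**Figure D1:**
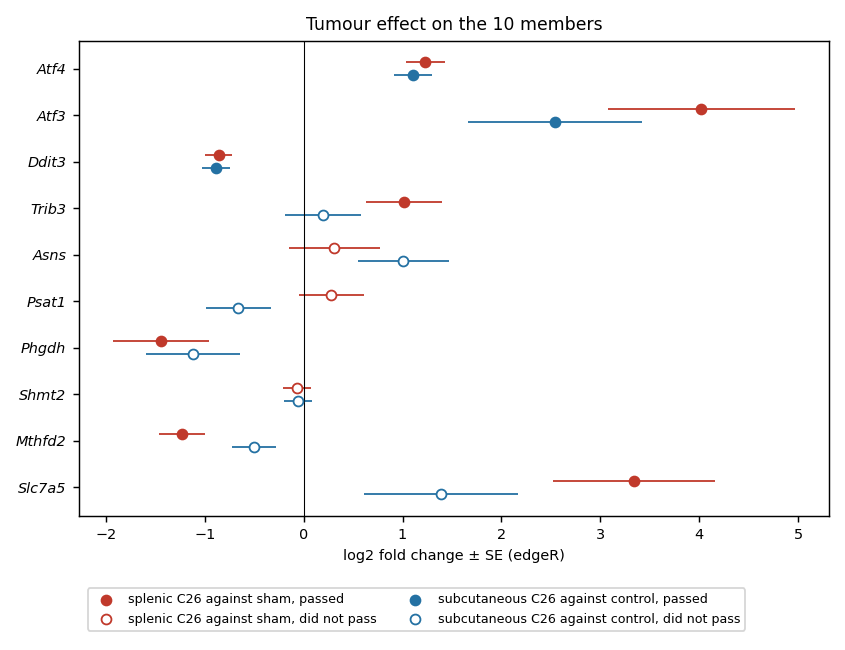
Log2 fold change of each member in splenic C26 against sham (red) and in subcutaneous C26 against control (blue), with horizontal bars of 1 SE; filled points passed at an adjusted p under 0.05 (edgeR) and open points did not. Atf4 and Atf3 lie to the right and Ddit3 to the left of 0 in both comparisons, and Shmt2 lies close to 0 in both.

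Atf4, the transcription factor of the response (chromosome 15, 80255184 to 80257541, plus strand, mm10), was measured in sham replicates 1 to 4 at 169, 160, 187 and 198 CPM and in splenic C26 replicates 1 to 4 at 265, 388, 616 and 406 CPM. All splenic C26 libraries were above all sham libraries, and replicate 1 was the lowest of them. The rise came to 1.23 ± 0.20 log2 (adjusted p = 0.000279, edgeR), where errors of log2 fold changes are standard errors here and in all that follows. In control Atf4 read 175, 183, 170 and 186 CPM and in subcutaneous C26 361, 428, 326 and 419 CPM, again without overlap, a log2 fold change of 1.10 ± 0.20 (adjusted p = 0.000538, edgeR). The rises were alike in size, with a difference between them of 0.12 (95% interval -0.46 to 0.71; adjusted p = 0.982, edgeR). Over the 16 libraries, the genes whose centred log2 CPM lay nearest to that of Atf4 among 11525 genes were Cacng1, a calcium channel subunit gene, Nolc1, a nucleolar protein gene, and Pxn, which encodes paxillin, at root mean square differences of 0.101, 0.121 and 0.130 log2, where Atf4 itself varied by 0.615. Of the other members the nearest was Trib3, at 0.547.

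Atf3 encodes a stress-induced repressor of the ATF/CREB family and is a known ATF4 target (chromosome 1, 191170296 to 191218039, minus strand). Sham libraries read 4.03, 3.91, 4.07 and 6.76 CPM, and splenic C26 libraries 3.96, 8.85, 124 and 169 CPM. Replicate 1 of splenic C26 was thus within the sham range, replicate 2 just above it, and replicates 3 and 4 far above. The log2 fold change was 4.02 ± 0.95 (adjusted p = 0.00320, edgeR); without splenic C26 replicate 4 it was 3.28 (adjusted p = 0.0116), and limma-voom, which averages log values, gave 2.64 without a call (adjusted p = 0.0698). Control libraries already varied, at 31.6, 11.9, 5.56 and 23.7 CPM, and all lay below the subcutaneous C26 libraries at 64.8, 166, 125 and 68.1 CPM. That rise was 2.54 ± 0.88 (adjusted p = 0.0264, edgeR), and it did not pass without control replicate 2 (2.36, adjusted p = 0.0696), control replicate 3 (2.24, adjusted p = 0.0679) or subcutaneous C26 replicate 2 (2.19, adjusted p = 0.0732). The tumour-free groups differed in Atf3 by -1.96 ± 0.88, sham below control, without passing over all genes (unadjusted p = 0.0419; adjusted p = 0.99996, edgeR).

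Ddit3 encodes CHOP, a C/EBP-family factor that ATF4 induces under lasting endoplasmic reticulum stress (chromosome 10, 127290774 to 127296288, plus strand). It went the other way from Atf4. Sham libraries read 7.04, 9.63, 8.28 and 8.44 CPM and splenic C26 libraries 4.44, 4.19, 4.51 and 5.28 CPM, with no overlap, and the change was -0.86 ± 0.14 (adjusted p = 0.000298, edgeR). Control libraries read 8.02, 8.58, 7.70 and 6.81 CPM and subcutaneous C26 libraries 3.85, 4.38, 4.14 and 4.44 CPM, also with no overlap, a change of -0.89 ± 0.14 (adjusted p = 0.000254, edgeR). The SD within a group was 0.268 to 1.06 CPM, and the difference between the falls was 0.03 (95% interval -0.38 to 0.44; adjusted p = 0.998, edgeR). Ddit3 shares 68 exon bases with Mars and 13 with Gm4189, on the opposite strand, and whether the counting used strand is not stated.

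Trib3 encodes a pseudokinase that binds ATF4 and damps it (chromosome 2, 152337422 to 152344032, minus strand). Sham libraries read 0.649, 1.39, 0.857 and 1.13 CPM and splenic C26 libraries 1.12, 1.34, 2.59 and 3.14 CPM. Replicates 3 and 4 of splenic C26 were above the sham range and replicates 1 and 2 within it. The rise of 1.01 ± 0.38 passed narrowly (adjusted p = 0.0380, edgeR). It did not pass without sham replicate 1 (0.85, adjusted p = 0.102), 3 (0.94, adjusted p = 0.0895) or 4 (1.07, adjusted p = 0.0576), or without splenic C26 replicate 3 (0.88, adjusted p = 0.0947) or 4 (0.73, adjusted p = 0.150). Nor did it pass with upper-quartile scaling (0.77, adjusted p = 0.0880), in limma-voom (0.89, adjusted p = 0.0633) or with only these 8 libraries fitted (1.02, adjusted p = 0.0690). Control libraries read 1.08, 1.42, 1.34 and 0.678 CPM and subcutaneous C26 libraries 1.75, 1.46, 0.704 and 1.22 CPM, which overlap, with a difference of 0.19 ± 0.38 (95% interval -0.63 to 1.01; adjusted p = 0.699, edgeR).

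**Figure D2:**
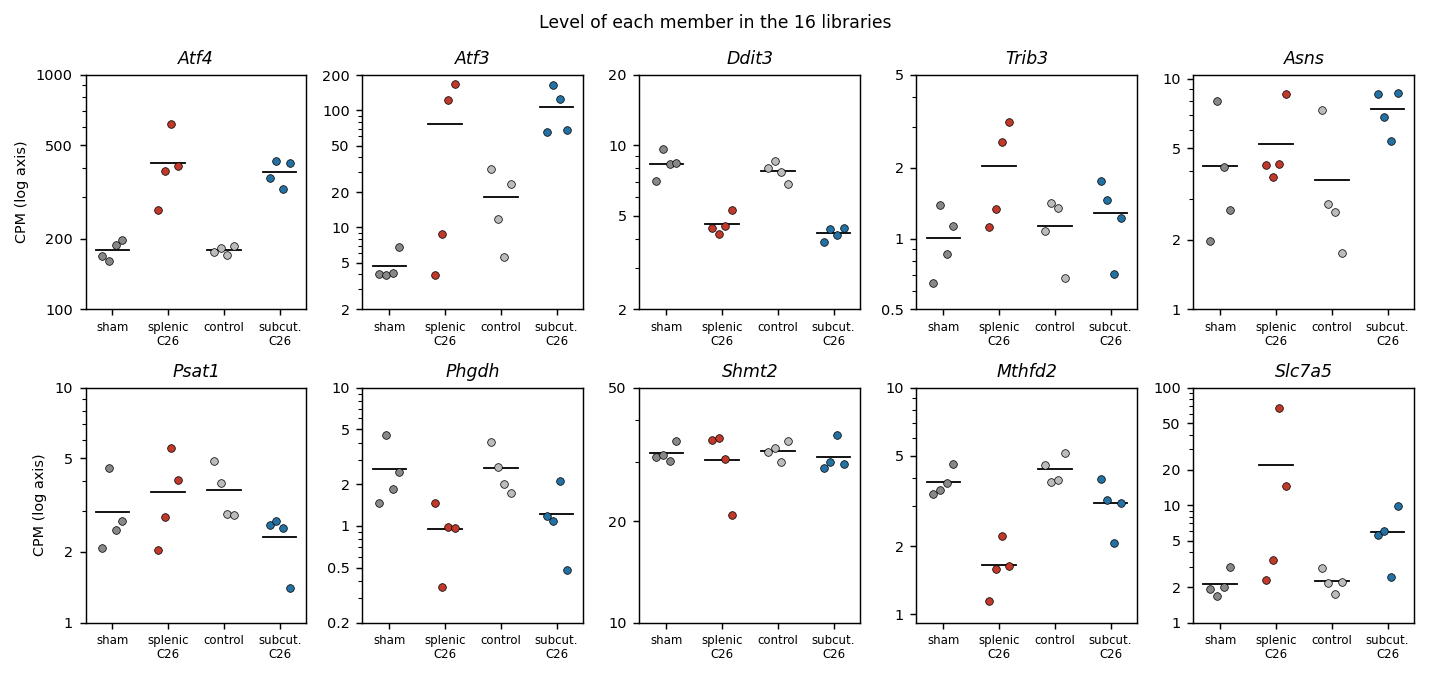
Level of each of the 10 members in every library, in CPM on a log axis whose range differs between panels; points are libraries in the order of their replicate numbers and bars are group means (n = 4). Ddit3 shows lower tumour groups without overlap, and Atf3 and Slc7a5 show splenic C26 libraries spread from the sham range to far above it.

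Slc7a5 encodes LAT1, the transporter that carries leucine and other large neutral amino acids into cells when joined to the heavy chain encoded by Slc3a2 (chromosome 8, 121881150 to 121907694, minus strand). Sham libraries read 1.95, 1.69, 2.01 and 2.95 CPM and splenic C26 libraries 2.3, 3.43, 67.1 and 14.6 CPM. One splenic C26 library lay within the sham range and replicate 3 was by far the highest of all 16. The rise was 3.34 ± 0.82 (adjusted p = 0.00416, edgeR), fell to 1.66 without splenic C26 replicate 3 (adjusted p = 0.0240), and was 2.02 without a call in limma-voom (adjusted p = 0.0736). Replicate 3 was also the library with neutrophil markers at 164 CPM, where replicate 4 had 15.2 CPM and replicates 1 and 2 had 3.29 and 2.85 CPM; the part of these cells in the result was not tested. Control libraries read 2.92, 2.16, 1.74 and 2.2 CPM and subcutaneous C26 libraries 5.54, 5.97, 2.44 and 9.78 CPM. All but replicate 3 of the 4 subcutaneous C26 libraries were above all controls, but the difference of 1.39 ± 0.78 did not pass (adjusted p = 0.150, edgeR). It passed when only these 8 libraries were fitted (1.39, adjusted p = 0.0121) or without splenic C26 replicate 3 (1.39, adjusted p = 0.0332).

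Asns encodes asparagine synthetase, a standard readout of the amino acid response (chromosome 6, 7675169 to 7693254, minus strand). Sham libraries read 1.98, 8.00, 4.12 and 2.71 CPM and splenic C26 libraries 4.24, 3.76, 4.28 and 8.62 CPM, so the groups overlapped over nearly their whole range (0.31 ± 0.46, 95% interval -0.66 to 1.28; adjusted p = 0.585, edgeR). Control libraries read 7.33, 2.87, 2.65 and 1.76 CPM and subcutaneous C26 libraries 8.60, 6.83, 5.38 and 8.70 CPM. Control replicate 1 alone reached into the subcutaneous C26 range. The difference of 1.01 ± 0.46 did not pass (adjusted p = 0.0798, edgeR), and it passed without control replicate 1 at 1.59 (adjusted p = 0.0118). It also passed in limma-voom (1.15, adjusted p = 0.0316).

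The high Asns libraries among tumour-free muscle were those with the most adipocyte transcripts. In sham, libraries with summed adipocyte markers of 197, 411, 611 and 1815 CPM had Asns at 1.98, 2.71, 4.12 and 8.00 CPM. In control, 385, 516, 679 and 1433 CPM went with 1.76, 2.65, 2.87 and 7.33 CPM. Within each tumour-free group the 4 libraries thus stood in 1 order for both quantities, and in subcutaneous C26, with sums of 755 to 1296 CPM, they did not. All 4 adipocyte markers were measured, none was at 0 in any library, and the sum was 474 to 941 CPM in splenic C26. The same 2 tumour-free libraries, sham replicate 2 and control replicate 1, also held the highest Phgdh and Psat1 of their groups. The part of adipocytes in these members' results was not tested beyond leaving out these 2 libraries, an alternative chosen after the values were seen. Without them Asns stood higher in subcutaneous C26 than in control by 1.59 (adjusted p = 0.00509, edgeR). In splenic C26 against sham it stood at 0.84 (adjusted p = 0.0621, edgeR). These 2 libraries were also the highest in Asns of their groups, so leaving them out by itself lowers the tumour-free means. The controls that remained, at 385 to 679 CPM of adipocyte markers, all lay below subcutaneous C26 at 755 to 1296 CPM. This fit therefore cannot separate tumour from adipocyte content.

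**Figure D3:**
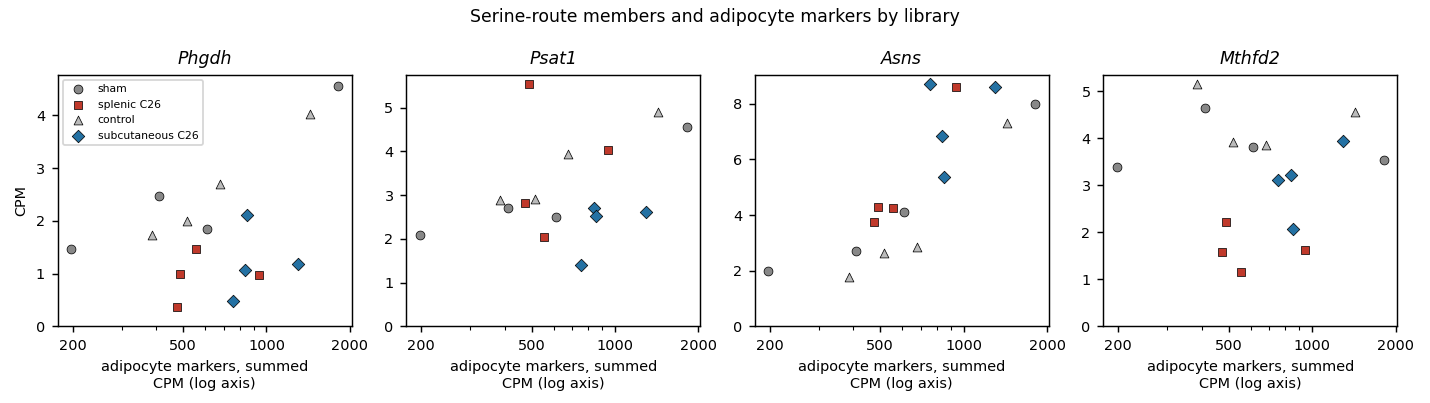
CPM of Phgdh, Psat1, Asns and Mthfd2 in each of the 16 libraries (vertical axis, linear from 0) against the summed CPM of 4 adipocyte markers (horizontal log axis), with a symbol per group. Sham replicate 2 and control replicate 1, at 1815 and 1433 CPM of adipocyte markers, have the highest Phgdh of all libraries, and they are not the highest of their groups for Mthfd2.

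Phgdh encodes the first enzyme of serine synthesis (chromosome 3, 98313170 to 98339990, minus strand). Sham libraries read 1.47, 4.56, 1.85 and 2.47 CPM and splenic C26 libraries 1.47, 0.361, 0.987 and 0.971 CPM. The groups did not overlap, but sham replicate 1 and splenic C26 replicate 1 differed only in the fourth digit (1.469 and 1.468 CPM). Phgdh fell by 1.44 ± 0.48 on the log2 scale (adjusted p = 0.0212, edgeR). The call was lost without sham replicate 2, the adipocyte-rich library (-1.01, adjusted p = 0.0947), and without splenic C26 replicate 2 (-1.17, adjusted p = 0.0585). Control libraries read 4.02, 2.69, 2.00 and 1.73 CPM and subcutaneous C26 libraries 1.18, 1.08, 2.112 and 0.481 CPM, of which replicate 3 lay within the control range. The difference of -1.11 ± 0.47 did not pass (adjusted p = 0.0616, edgeR), but passed without subcutaneous C26 replicate 3 (-1.51, adjusted p = 0.0187), sham replicate 2 (-1.15, adjusted p = 0.0419) or splenic C26 replicate 1 (-1.15, adjusted p = 0.0431) or 2 (-1.12, adjusted p = 0.0456), and in DESeq2 (-1.13, adjusted p = 0.0334). The pseudogene Phgdh-ps1 is annotated in the genome, so a share of reads may have been placed there.

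Psat1, the second enzyme of the route (chromosome 19, 15904678 to 15947337, minus strand), did not pass in either comparison. Sham libraries read 2.08, 4.56, 2.49 and 2.71 CPM and splenic C26 libraries 2.04, 2.82, 5.55 and 4.04 CPM, which overlap (0.28 ± 0.33, 95% interval -0.42 to 0.98; adjusted p = 0.492, edgeR). Control libraries read 4.89, 3.94, 2.91 and 2.88 CPM and subcutaneous C26 libraries 2.61, 2.70, 2.53 and 1.41 CPM. All subcutaneous C26 libraries were below all controls, and the difference of -0.66 ± 0.33 still did not pass over all genes (95% interval -1.36 to 0.04; adjusted p = 0.107, edgeR), though it did with upper-quartile scaling (-0.91, adjusted p = 0.0293).

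Shmt2 encodes the mitochondrial enzyme that splits serine into glycine and a one-carbon unit (chromosome 10, 127517123 to 127522444, minus strand), and its levels hardly moved. Sham libraries read 31.1, 31.6, 30.2 and 34.7 CPM and splenic C26 libraries 34.9, 35.5, 30.6 and 20.9 CPM, of which only replicate 4 was low. Control libraries read 32.2, 33.1, 30.0 and 34.8 CPM and subcutaneous C26 libraries 28.8, 30.1, 36.2 and 29.7 CPM. The differences were -0.07 (95% interval -0.37 to 0.24; adjusted p = 0.714, edgeR) and -0.06 (-0.36 to 0.24; adjusted p = 0.746, edgeR). Shmt2 shares 32 exon bases with Ndufa4l2 on the opposite strand.

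Mthfd2 encodes the mitochondrial folate dehydrogenase and cyclohydrolase that follows SHMT2 (chromosome 6, 83305691 to 83325908, minus strand). Sham libraries read 3.38, 3.53, 3.80 and 4.63 CPM and splenic C26 libraries 1.15, 1.59, 2.21 and 1.63 CPM, with no overlap. Mthfd2 fell by 1.23 ± 0.23 on the log2 scale (adjusted p = 0.000763, edgeR). Control libraries read 4.56, 3.85, 3.92 and 5.15 CPM and subcutaneous C26 libraries 3.95, 3.21, 2.07 and 3.11 CPM, of which replicate 1 lay within the control range. That difference of -0.50 ± 0.22 did not pass (adjusted p = 0.0747, edgeR), but passed without subcutaneous C26 replicate 1 (-0.65, adjusted p = 0.0427), without splenic C26 replicate 1 (-0.51, adjusted p = 0.0423) and with upper-quartile scaling (-0.74, adjusted p = 0.00918).

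The comparison of the tumour effects themselves asked whether any member answered differently to splenic and to subcutaneous tumour cells. None of the 10 passed (0 of all 13320 genes passed, 0% called, edgeR). DESeq2 called 84 genes higher and 2 lower, with 0 members among them, and limma-voom called 0 genes. At an unadjusted p under 0.05 there was 1 member, beside 851 of all genes: Mthfd2, whose fall was larger in splenic C26 by -0.73 ± 0.32 (unadjusted p = 0.0376; adjusted p = 0.746, edgeR). The widest intervals were those of Slc7a5, 1.95 (95% interval -0.38 to 4.28), and Atf3, 1.48 (-1.07 to 4.03). For Slc7a5 the value was 0.27 without splenic C26 replicate 3. Sham and control also differed in 0 members (0.00751% of all genes called, edgeR). Between these groups 1 member, Atf3, was at an unadjusted p under 0.05, beside 285 of all genes (edgeR). The 58 genes that DESeq2 called between them held 0 members.

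Other genes of the pathway were read from 4 lists of 86 symbols, of which 78 were measured. The first list holds regulators of eIF2 alpha phosphorylation and Eif2s1, the gene of eIF2 alpha itself, which rose in both comparisons. Of this list 9 of 11 were measured. In splenic C26 against sham 5 rose and 2 fell (median log2 fold change 0.78), where 28.1% of all genes rose and 23.9% fell. In subcutaneous C26 against control 6 rose and 3 fell (0.84), where 27.0% and 23.1% of all genes did. These shares of all genes are the background for the other lists too, and no test set a list apart from all genes. The lists were chosen with earlier results of these data known, so a share that departs from the background may come from that choice. Impact, which encodes an inhibitor of the amino acid sensor kinase GCN2, read 17.8 to 19.5 CPM in sham and 46.4 to 81.3 in splenic C26 (1.87 ± 0.18; adjusted p = 1.17e-05, edgeR) and 15.8 to 19.0 in control and 78.8 to 132 in subcutaneous C26 (2.65 ± 0.18; adjusted p = 2.58e-06). Ppp1r15a, which encodes GADD34, the phosphatase subunit that ends eIF2 alpha phosphorylation, rose from 21.2 ± 1.29 to 155 ± 88.9 CPM in splenic C26 (SD, n = 4; log2 fold change 2.87 ± 0.37, adjusted p = 8.22e-05, edgeR) and by 2.09 ± 0.36 in subcutaneous C26 (adjusted p = 0.000460). Eif2ak2, the gene of the kinase PKR that answers double-stranded RNA, fell by 1.04 ± 0.21 and by 1.12 ± 0.21 (adjusted p = 0.00118 and 0.000789, edgeR). The other 3 kinase genes are added with their values known, so that all 4 are given. Eif2ak4, which encodes GCN2, rose by 0.78 ± 0.21 and 0.92 ± 0.21 (adjusted p = 0.00613 and 0.00249, edgeR). Eif2ak1, which encodes the haem-regulated kinase, rose by 0.47 ± 0.12 in subcutaneous C26 (adjusted p = 0.00590) and stood at 0.30 ± 0.12 in splenic C26 without passing (adjusted p = 0.0511). Eif2ak3, which encodes PERK, fell by 0.49 ± 0.19 in subcutaneous C26 (adjusted p = 0.0407) and stood at -0.35 ± 0.19 in splenic C26 without passing (adjusted p = 0.122). The count of 2 lower in splenic C26 was 1 without sham replicate 1, 3 or 4 and without splenic C26 replicate 1 or 3.

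Of 25 further ATF4 targets and partners 22 were measured. In splenic C26 against sham 11 rose and 2 fell (50% and 9.09%, beside 28.1% and 23.9% of all genes; median 0.74), and in subcutaneous C26 against control 10 rose and 1 fell (45.5% and 4.55%, beside 27.0% and 23.1%; median 0.36). Eif4ebp1, a repressor of cap-dependent translation, stood at 33.0 to 40.7 CPM in sham and at 161 to 601 CPM in splenic C26, and rose by 3.69 ± 0.40 (adjusted p = 3.14e-05, edgeR); in subcutaneous C26 it rose by 3.67 ± 0.40 (adjusted p = 3.26e-05). Cebpb, a C/EBP partner of ATF4, rose by 1.99 ± 0.28 and 2.09 ± 0.28 (adjusted p = 0.000127 and 0.000100, edgeR). Ddit4, which encodes the mTORC1 inhibitor REDD1, showed the largest rises of the list that passed, 4.47 ± 0.89 and 4.23 ± 0.88 (adjusted p = 0.00115 and 0.00159, edgeR). Subcutaneous C26 replicate 3, at 20.2 CPM of Ddit4, was far below the others of its group at 152 to 311 CPM. Mknk2, a kinase gene of the initiation factor eIF4E, rose by 2.71 ± 0.39 and 2.76 ± 0.39 (adjusted p = 0.000148 and 0.000132, edgeR). Nfe2l2, the gene of the antioxidant factor NRF2, rose by 0.98 ± 0.14 and 1.27 ± 0.14 (adjusted p = 0.000159 and 3.68e-05, edgeR). Enzymes of proline synthesis were the members of this list that fell. Aldh18a1 read 3.18 to 5.90 CPM in sham and 0.971 to 2.17 CPM in splenic C26 (-1.63 ± 0.28, adjusted p = 0.000466, edgeR). In subcutaneous C26 it stood at -0.35 ± 0.27 without passing (adjusted p = 0.293, edgeR). Pycr1 changed by -1.41 ± 0.35 and -0.97 ± 0.34 (adjusted p = 0.00396 and 0.0282, edgeR). The count of 1 lower in subcutaneous C26 was 0 without control replicate 3 and without subcutaneous C26 replicate 1 or 4, and 2 without splenic C26 replicate 1, 2 or 3.

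Of 19 amino acid transport genes 17 were measured, of which 7 rose and 2 fell in splenic C26 against sham (41.2% and 11.8%, beside 28.1% and 23.9% of all genes; median 0.64). In subcutaneous C26 against control 8 rose and 2 fell (47.1% and 11.8%, beside 27.0% and 23.1%; median 0.46). Slc3a2, the heavy chain that joins LAT1, read 31.2, 39.8, 33.9 and 35.3 CPM in sham and 65.7, 66.5, 153 and 114 CPM in splenic C26, where replicates 3 and 4 were the highest, as they were for Slc7a5 (1.51 ± 0.24, adjusted p = 0.000273, edgeR). In subcutaneous C26 it rose by 1.12 ± 0.24 (adjusted p = 0.00172). Slc7a8, which encodes the related light chain LAT2, rose by 3.44 ± 0.53 and 2.29 ± 0.51 (adjusted p = 0.000242 and 0.00223, edgeR), and its splenic C26 libraries spread from 50.2 to 385 CPM. Slc7a6, another light chain, rose evenly, from 11.4 ± 0.758 to 26.8 ± 2.72 CPM (1.24 ± 0.13, adjusted p = 3.03e-05) and by 1.28 ± 0.13 (adjusted p = 2.70e-05). Slc43a2, the gene of the leucine transporter LAT4, rose by 2.26 ± 0.44 and 2.64 ± 0.45 (adjusted p = 0.00102 and 0.000428, edgeR). Slc38a2, which encodes the glutamine and alanine transporter SNAT2, rose by 1.55 ± 0.28 in subcutaneous C26 (adjusted p = 0.000540, edgeR). It stood at 0.64 ± 0.27 in splenic C26 without passing (adjusted p = 0.0576). The count of 2 lower in splenic C26 was 1 without sham replicate 1 or 4 and without splenic C26 replicate 2, 3 or 4.

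Of 31 serine and folate enzymes and carriers 30 were measured. In splenic C26 against sham 10 rose and 11 fell (33.3% and 36.7%, beside 28.1% and 23.9% of all genes; median -0.31). In subcutaneous C26 against control 7 rose and 10 fell (23.3% and 33.3%, beside 27.0% and 23.1%; median -0.31). Psph, the last enzyme of serine synthesis, picked after its values were seen because it closes the route of Phgdh and Psat1, read 9.60, 9.60, 10.5 and 10.6 CPM in sham and 4.82, 3.47, 2.35 and 1.82 CPM in splenic C26 (-1.68 ± 0.33, adjusted p = 0.00101, edgeR). In control it read 10.7, 9.89, 10.9 and 11.2 CPM and in subcutaneous C26 3.12, 3.08, 8.41 and 2.89 CPM (-1.29 ± 0.33, adjusted p = 0.00486). Every tumour library was below every tumour-free library of its comparison, and subcutaneous C26 replicate 3 was the nearest to its controls. Slc46a1, a folate carrier gene, changed by -2.49 ± 0.44 in splenic C26 (adjusted p = 0.000520, edgeR), from 1.37 to 2.55 CPM in sham to 0.141 to 0.606 CPM. In subcutaneous C26 against control it changed by -1.31 ± 0.41 (adjusted p = 0.0165, edgeR).

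Among the genes of this list that rose were Ahcy, Gart, Gnmt and Gldc. Ahcy, which clears S-adenosylhomocysteine after methylation, read 8.68 to 11.6 CPM in sham and 16.1 to 57.5 CPM in splenic C26, and rose by 1.95 ± 0.33 in subcutaneous C26 (adjusted p = 0.000393, edgeR). Gart, of purine synthesis, rose by 0.64 ± 0.11 and 0.69 ± 0.11 (adjusted p = 0.000400 and 0.000256, edgeR). Gnmt, which encodes the glycine methyltransferase, rose most of the list in splenic C26, by 3.88 ± 0.44 (adjusted p = 4.10e-05), from 0.593 to 1.27 CPM in sham to 4.21, 11.7, 17.9 and 20.96 CPM. In subcutaneous C26 against control its difference of 0.78 ± 0.39 did not pass (adjusted p = 0.110, edgeR), and its mean was 0.927 CPM in sham and 2.80 CPM in control. The difference between the tumour effects in Gnmt was 3.11 ± 0.57 and did not pass over all genes (unadjusted p = 6.2e-05, adjusted p = 0.0826, edgeR). Gnmt is also abundant in liver. Hepatocyte markers were at 130 CPM in splenic C26 replicate 1, where Gnmt was at 4.21 CPM, the lowest of its group. In control replicates 1 to 4 they summed to 29.5, 138, 43.5 and 225 CPM, and Gnmt read 1.92, 2.93, 1.96 and 4.40 CPM. The control libraries thus stood in 1 order for both quantities. The part of liver transcripts in the levels of Gnmt was not tested. Gldc, the glycine cleavage decarboxylase gene, rose by 3.07 ± 0.51 in splenic C26 (adjusted p = 0.000350, edgeR) to a low level of 0.470 to 1.24 CPM. Sham libraries held only 2 to 5 counts of it, at 0.0683 to 0.148 CPM. In subcutaneous C26 it rose by 1.51 ± 0.43 (adjusted p = 0.00951, edgeR), where control libraries read 0.307 to 0.592 CPM.

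**Figure D4:**
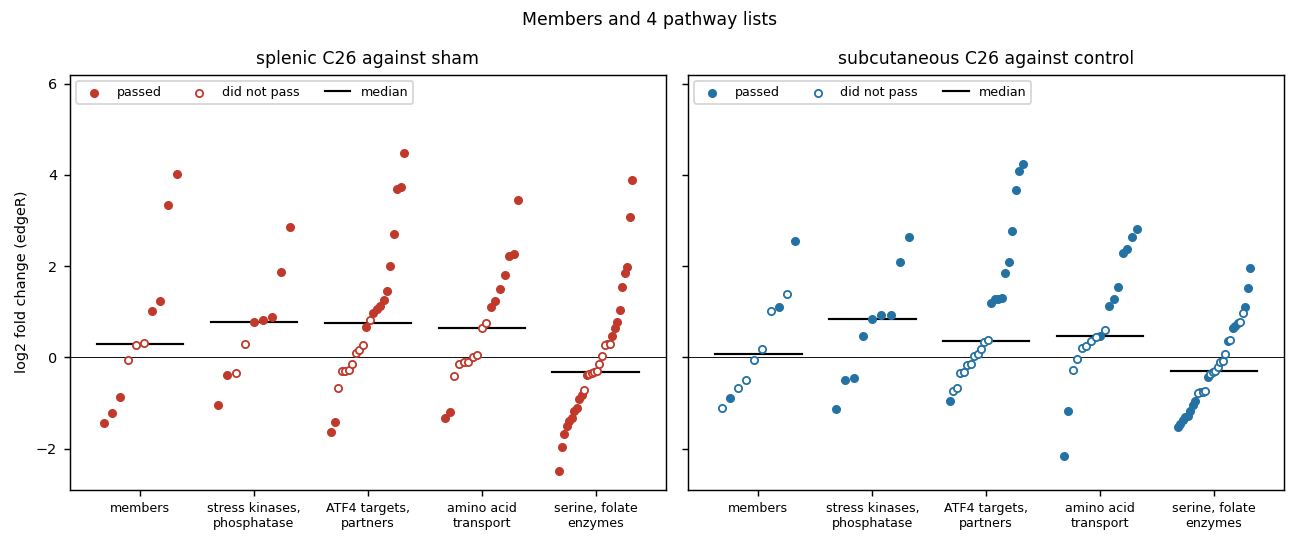
Log2 fold changes of the 10 members and of the measured genes of 4 pathway lists, in splenic C26 against sham (left) and in subcutaneous C26 against control (right); each point is a gene, in rising order within its list, filled where it passed at an adjusted p under 0.05 (edgeR), and bars are medians. The serine and folate list has a median of -0.31 in both comparisons, and the other lists have medians above 0.

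For Asns and Phgdh the genes of most similar pattern over the 16 libraries were farther away than for Atf4. For Asns they were Snx10, Rbp7 and Sowahc, at root mean square differences of 0.341, 0.355 and 0.359 log2, where Asns itself varied by 0.743. For Phgdh they were Sncg, Idi1 and Lpar6, at 0.366, 0.371 and 0.372 log2, where Phgdh varied by 0.895. None of these 6 genes is a member. Between members the smallest difference was that of Ddit3 and Shmt2, at 0.473, which is more than either varied itself (0.451 and 0.181). Phgdh lay nearest to Ddit3, at 0.633, and farthest from Atf3, at 2.51.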

How the data were processed

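All quadriceps RNA was isolated and sequenced together (75-base paired ends), per the labels' protocols. The authors deposited raw read counts per gene symbol, made with STAR and featureCounts per the labels; the submitters' processing notes list FastQC, STAR, edgeR and mm10. Of tool versions, annotation and strandedness, nothing is given in the sources used here. The second deposited table holds log2 values and served only as an alternative. The 4013 blank rows were left out; every one of the 13320 genes exceeded 0.5 CPM in at least 4 libraries, and filterByExpr removed 0.

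Groups came from each sample's tumour label; replicate numbers follow accession order and pair nothing. Main tests used edgeR's quasi-likelihood test (version 4.0.16, R 4.3.3) with TMM scaling, robust dispersions, a coefficient for each group, all 16 libraries, and Benjamini-Hochberg adjustment over all genes (threshold 0.05). In simulated counts 200 of 13243 genes were changed, and edgeR called 53% of 2-fold and 90% of 4-fold changes in the right direction. In the measured data 52.0% of all genes passed in splenic C26 against sham and 50.0% in subcutaneous C26 against control. Recovery with so large a share of genes changed was not tested. CPM use TMM-scaled library sizes, and log2 CPM a prior count of 2. Exon lengths and positions came from GENCODE M21, which matched 12868 symbols (96.6%).

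The members and lists were chosen with earlier results of these data known. Named were all members, the 3 genes of smallest p per list and tumour comparison, the highest and lowest called gene of 2 lists, and the 3 nearest patterns to Atf4, Asns and Phgdh; Psph, Eif2ak1, Eif2ak3 and Eif2ak4 were added after their values were seen. Some genes that the rule names are not reported here. Alternatives were other scalings, filters, thresholds, DESeq2 1.42.0, limma 3.58.1 (voom and trend), omitted genes and omitted libraries.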

Additional observations from a re-analysis of the deposited data

Results flagged for a closer look

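Each member was examined in each group, 40 groups of 4 libraries, for a highest or lowest library whose gap to the next, as a share of the group's range, exceeds Dixon's 95% critical value; chance gives about 1 in 20, and 3 groups were set apart. Atf3 stood at 6.76 CPM in sham replicate 4, against 3.91 to 4.07 CPM in the other sham libraries. Asns stood at 8.62 CPM in splenic C26 replicate 4, against 3.76 to 4.28 CPM in the others, and that library also had the most adipocyte transcripts of its group, at 941 CPM against 474 to 555 CPM. Psat1 stood at 1.41 CPM in subcutaneous C26 replicate 4, against 2.53 to 2.70 CPM, in the library with proliferation markers at 61.4 CPM. The part of these transcripts in the values was not tested. No member's tumour effects differed between the splenic and the subcutaneous comparison at an adjusted p under 0.05 (edgeR).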

How the results depend on the processing

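The calls of Atf4 and Ddit3 in both tumour comparisons and of Mthfd2 in splenic C26 held under every alternative test, scaling, filter and omitted library that was run. In splenic C26 the count of members higher, 4, was 1 in limma-voom. It was 3 without 4 libraries with transcripts of other tissues, where Trib3 did not pass (1.15, adjusted p = 0.0534). These were splenic C26 replicates 1 and 3, control replicate 1 and subcutaneous C26 replicate 4. Control replicates 2 and 4, kept in that fit, had hepatocyte markers at 138 and 225 CPM. The count was 4 without the 2 tumour-free libraries rich in adipocyte transcripts. In subcutaneous C26 the count of members higher, 2, was 1 at an adjusted p under 0.01 and 1 to 3 when 1 library was left out. The count of members lower, 1, was 4 with upper-quartile scaling, 3 in limma-voom, 2 in DESeq2 and in limma-trend on the deposited values, 0 when at least 2-fold was also asked, and 1 to 3 when 1 library was left out. Upper-quartile scaling moved the median of all genes by -0.21 and -0.24 and the share of calls that were higher from 54.0% to 38.5% and from 53.9% to 34.9%. Signs turned only for values without a call: the difference between the tumour effects in Atf3 was -0.0385 in limma-voom and -0.0398 in limma-trend; that in Shmt2 was 0.0251 with RLE scaling, 0.0316 with upper-quartile scaling, 0.0046 with a mean of at least 1 CPM, 0.026 in DESeq2 and 0.0269 without the adipocyte-rich libraries; and Trib3 in subcutaneous C26 was -0.0569 with upper-quartile scaling. When 1 library was left out, uncalled values crossed 0 in splenic C26 for Asns (-0.0437 to 0.8389), Psat1 (-0.0027 to 0.5805) and Shmt2 (-0.1469 to 0.0845), in subcutaneous C26 for Trib3 (-0.0043 to 0.3878), and in the difference between the tumour effects for Atf4 (-0.1225 to 0.3171), Ddit3 (-0.0439 to 0.1405), Phgdh (-0.5985 to 0.1431) and Shmt2 (-0.0871 to 0.1671). Of the pathway list counts, 11 lower serine and folate genes in splenic C26 were 7 at an adjusted p under 0.01. The 7 higher in subcutaneous C26 were 4 without the 4 libraries named above for transcripts of other tissues. Where a value changed with the setting, the cause was not tested. Counts of 10 to 157 per library limit Phgdh, and 17 to 81 Trib3.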
